A study of Mus musculus with 8 samples.

Results

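The genes described here encode the receptor chains for the cytokines of the common gamma chain family: Il2ra, Il2rb, Il2rg, Il4ra, Il7r, Il9r, Il15ra and Il21r. They were taken by symbol from the deposited gene tables, in which all 8 were found among 38215 listed genes, and all 8 passed the filter on low counts that 13397 genes passed. Their RNA was compared between regulatory T cells (Treg) of the bone marrow (BM-Treg, 4 libraries) and of the spleen (SP-Treg, 4 libraries).

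Cells that expressed FoxP3 were sorted from naïve, untreated B6.FoxP3-GFP mice aged 12 weeks, in which a green fluorescent protein reports FoxP3, and the labels give the genotype of all libraries as C57Bl/6. BM-Treg replicates 1 to 3 are labelled as batch 1 and female, whereas BM-Treg replicate 4 and SP-Treg replicates 1 to 4 are labelled as batch 3 and male. By these labels batch and sex coincide and cannot be told apart. Tissue can be told apart from them only through 1 BM-Treg library. Whether CD25 (the protein of Il2ra) or CD127 (that of Il7r) took part in the sorting gate is not given in the sources used here. The titles of the SP-Treg libraries carry overlapping ranges of numbers, and whether these mark pooled mice is not given either. P-values therefore measure the spread between these libraries, which may be smaller than that between mice.

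Libraries held between 12427136 and 21921252 expected counts, which are RSEM's estimates of the reads of each gene. The 10 Treg and T cell markers were detected in every library, and their levels in CPM (counts scaled to a common library size) summed to 7354 to 8931 in BM-Treg against 7844 to 8729 in SP-Treg. Of the 10, only Tigit had an adjusted p under 0.05, and it was lower in BM-Treg. Its log2 fold change was -0.68 (edgeR adjusted p = 0.0121, with a batch term 0.216). Markers of mature B cells summed to 105.9 CPM in SP-Treg replicate 2 and to at most 24.7 CPM in the other libraries, and erythroid markers summed to 188, 455.1 and 292 CPM in SP-Treg replicates 2, 3 and 4, against 1.94 CPM in SP-Treg replicate 1 and at most 32.7 CPM in BM-Treg. Xist, which is transcribed in female cells, stood at 1232, 2270 and 2275 CPM in the BM-Treg libraries labelled female, and Y-linked Ddx3y stood at 46.6, 16.0 and 0.526 CPM in the same 3 libraries. BM-Treg replicates 1 and 2 thus carried RNA of both sexes under a female label, and the values of the receptor genes are also given without them.

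Receptors of this family share the gamma chain encoded by Il2rg, which pairs with a cytokine-specific chain and signals through the kinases JAK1 and JAK3 to STAT transcription factors. Il2ra and Il15ra encode chains that capture their cytokine, and Il2rb encodes the signalling chain that IL-2 and IL-15 have in common. Il7r, Il4ra, Il9r and Il21r encode the chains that confer binding of IL-7, IL-4, IL-9 and IL-21. Treg are known for a high level of Il2ra, a direct target of FoxP3, for their need for IL-2, and for a level of Il7r below that of other CD4+ T cells.

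Of the 8 genes, 2 rose in BM-Treg, Il9r and Il7r, and none fell (edgeR quasi-likelihood test, Benjamini-Hochberg adjusted p under 0.05). Over all genes tested, 3.72% were called higher and 5.02% lower in BM-Treg, 8.75% in either direction. An unadjusted p under 0.05 was reached by 2 further genes, Il2ra and Il21r, both with lower means in BM-Treg. The share of all genes that reached it was not counted. DESeq2 called 1 of the 8 lower, Il2ra, and 922 of all 13397 genes lower. The BM-Treg libraries lay above every SP-Treg library for 2 of the 8 genes, against 7.58% of all genes tested, and below every SP-Treg library for none, against 8.57% (16.2% in either direction). The median log2 fold change of the 8 genes was -0.04, and that of all genes tested was -0.01.

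The sequences before the starts of the genes that rose are shown because these are the stretches in which promoters are read for motifs. Each line holds the 250 bases upstream of the RefSeq start (GRCm38.p6), written 5′ to 3′ along the gene, with motif matches in capitals. The Il9r window is chr11:32200280-32200529 and the Il7r window chr15:9529877-9530126, both on the minus strand.
Il9r: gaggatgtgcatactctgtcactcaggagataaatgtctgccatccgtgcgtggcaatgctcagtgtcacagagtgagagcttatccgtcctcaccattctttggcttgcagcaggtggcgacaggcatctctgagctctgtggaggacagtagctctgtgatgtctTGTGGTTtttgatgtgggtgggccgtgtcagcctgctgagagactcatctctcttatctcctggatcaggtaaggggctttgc
Il7r: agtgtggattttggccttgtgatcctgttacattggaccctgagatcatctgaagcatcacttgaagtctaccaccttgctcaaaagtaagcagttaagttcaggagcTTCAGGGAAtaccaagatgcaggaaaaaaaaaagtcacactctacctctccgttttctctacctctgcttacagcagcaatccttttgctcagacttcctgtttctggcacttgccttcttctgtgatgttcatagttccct
Both strands of the windows were searched for TTCNNNGAA (bound by STAT factors), GTAAACA (FOXO) and TGTGGTT (RUNX), whose matches did not overlap. The Il9r window held 1 RUNX match, 83 to 77 bases before the start, and the Il7r window held 1 STAT match, 142 to 134 bases before the start. Among 32851 such windows of mouse genes, 4.4% held the RUNX letters, 7.02% the STAT letters and 3.17% the FOXO letters. Of the 7 member genes with a window, only Il21r held the FOXO letters, and the windows of Il2ra, Il15ra, Il4ra and Il2rg held none of the 3 motifs. No binding was measured here.

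Il9r (ENSMUSG00000020279, chromosome 11, 32187541 to 32200279, minus strand) changed most of the 8. Its level was 44.2, 42.1, 34.3 and 40.4 CPM in BM-Treg replicates 1 to 4, and 13.6, 17.1, 11.1 and 10.9 CPM in SP-Treg replicates 1 to 4. Every BM-Treg library lay well above every SP-Treg library, and BM-Treg replicate 3 and SP-Treg replicate 2 came nearest to each other. Il9r was 3.06-fold higher in BM-Treg, a log2 fold change of 1.61 (SE 0.16, 95% interval 1.28 to 1.95, edgeR adjusted p = 8.2e-05). BM-Treg replicate 4 alone against the 4 SP-Treg libraries of its own batch gave a log2 fold change of 1.63 (edgeR adjusted p = 0.0223, under the assumption that the lone library varied like the others), in a fit that called 0.732% of all genes and 1 of the 8. With a batch term, which called 1.93% of all genes and 1 of the 8, the adjusted p was 0.00593, and without BM-Treg replicates 1 and 2 it came to a log2 fold change of 1.53 (edgeR adjusted p = 0.0056). Markers of mast cells and basophils, cells known to respond to IL-9, summed to at most 0.139 CPM in BM-Treg and 0.441 in SP-Treg, with Fcer1a at 0 in all libraries.

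Il7r (ENSMUSG00000003882, chromosome 15, 9506161 to 9529876, minus strand) encodes the alpha chain of the IL-7 receptor, known for its part in T cell survival. It measured 579, 624, 606 and 587 CPM in BM-Treg replicates 1 to 4, and 416, 357, 338 and 244 CPM in SP-Treg replicates 1 to 4. BM-Treg libraries were close to each other and all above SP-Treg, among which replicate 4 was low. Il7r was 1.77-fold higher in BM-Treg, with a log2 fold change of 0.82 (SE 0.14, 95% interval 0.53 to 1.11, edgeR adjusted p = 0.00218). Within batch 3 the log2 fold change was nearly the same at 0.81, but with 1 BM-Treg library it did not pass (edgeR adjusted p = 0.151), and the fit with a batch term gave an adjusted p of 0.0706. Without BM-Treg replicates 1 and 2 it came to 0.84 (edgeR adjusted p = 0.0337). The calls of Il7r and Il9r each held when any 1 library was left out, with adjusted p of at most 0.00917 and 0.000606. Since the libraries are bulk samples, more cells of a kind that carries a receptor and more RNA per cell cannot be told apart.

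Marker levels of other cells known for these receptors moved with tissue in part. The summed level of the 5 ILC2 markers was 435.1 to 672.7 CPM in BM-Treg and 277.5 to 409.6 CPM in SP-Treg, and consisted mostly of Klrg1 and Rora, which Treg also express, with Arg1 and Calca near 0. Klrg1, the only one of these called, rose by a log2 fold change of 1.07 (edgeR adjusted p = 0.00105). The 6 B cell progenitor markers, of cells that depend on IL-7, summed to 1.07 to 2.85 CPM in BM-Treg. In SP-Treg they summed to 1.58 to 18.9 CPM, with Igll1 at 0 in all libraries. The 18.9 CPM was that of SP-Treg replicate 2, the library with the most mature B cell marker RNA. Ebf1 stood at 11.1 CPM there and Pax5 at 6.86 CPM. Vpreb1, Rag1 and Dntt reached at most 0.399, 0.768 and 0.837 CPM in any library and overlapped between the tissues. Of this list Ebf1 was tested and called lower in BM-Treg (log2 fold change -2.42, edgeR adjusted p = 0.0332). The CD8 T cell markers Cd8a and Cd8b1 summed to 10.9 to 12.6 CPM in BM-Treg, all below the 13.2 to 41.1 CPM of SP-Treg. Cd8a was called lower (edgeR adjusted p = 0.0293). Cd8b1 overlapped between the tissues and was not called (edgeR adjusted p = 0.21). The calls of Ebf1 and Cd8a held in 3 and 4 of the 8 fits that left out 1 library. Neither gene passed with a batch term (edgeR adjusted p = 0.312 and 0.27). The summed level of the 5 NK cell and ILC1 markers was also lower in every BM-Treg library, at 0 to 0.0548 CPM, than in SP-Treg, at 0.791 to 3.03 CPM. Taken singly, only Klrb1c of the 5 lay lower in every BM-Treg library, and none of the 5 passed the filter. The part of these cells in the levels of the receptor genes was not tested.

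**Figure D1:**
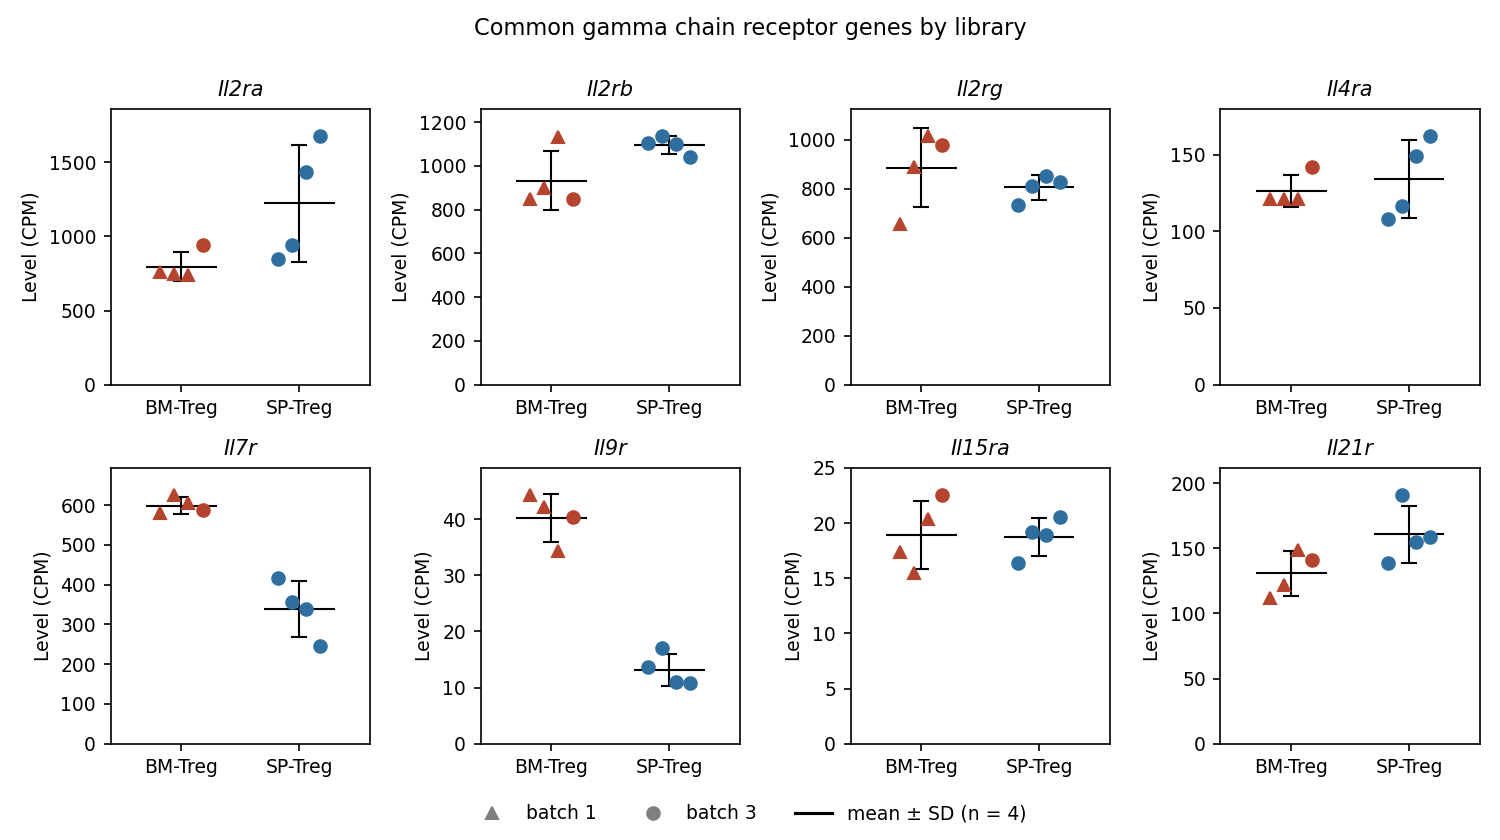
Level of each of the 8 receptor genes (CPM, linear axes from 0, a scale for each gene) in the 4 BM-Treg and 4 SP-Treg libraries, with a point for each library (triangles for batch 1, circles for batch 3) and lines for the group mean and SD. Points of the groups are apart for Il9r and Il7r and overlap for the other 6 genes.

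None of the genes of the IL-2 receptor chains (Il2ra, Il2rb and Il2rg) was called by edgeR over all libraries. Il2ra (ENSMUSG00000026770, chromosome 2, 11642792 to 11693191, plus strand), the high-affinity chain CD25, measured 763, 747, 737 and 940 CPM in BM-Treg replicates 1 to 4, and 849, 944, 1434 and 1676 CPM in SP-Treg replicates 1 to 4. SP-Treg libraries spread widely, with replicates 3 and 4 far above replicates 1 and 2, and BM-Treg replicate 4 lay above SP-Treg replicate 1. The log2 fold change was -0.62 (SE 0.20, 95% interval -1.06 to -0.18) and missed the threshold (edgeR adjusted p = 0.0803). It passed with DESeq2 (adjusted p = 0.0128), without SP-Treg replicate 1 (edgeR adjusted p = 0.0208) and without SP-Treg replicate 2 (edgeR adjusted p = 0.0473). Within batch 3 it was -0.36, without BM-Treg replicates 1 and 2 it was -0.52 (edgeR adjusted p = 0.375), with a batch term the adjusted p was 0.569, and leaving out 1 library raised it to at most 0.195.

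Il2rb, on chromosome 15 (78480553 to 78495066), measured 849, 898, 1131 and 848 CPM in BM-Treg and 1103, 1135, 1100 and 1038 in SP-Treg. Of the BM-Treg libraries only replicate 3 reached the SP-Treg range, and the log2 fold change of -0.23 (SE 0.11, 95% interval -0.48 to 0.01, edgeR adjusted p = 0.236) did not pass. Within batch 3 it was -0.35, and without BM-Treg replicates 1 and 2 it was -0.12 (edgeR adjusted p = 0.736). Il15ra, which presents IL-15, lay 12.1 kb beyond Il2ra with no listed gene between them, and was among the lowest of the 8. It stood at 17.4, 15.5, 20.3 and 22.5 CPM in BM-Treg and 16.4, 19.2, 18.9 and 20.6 CPM in SP-Treg. The groups overlapped fully, with a log2 fold change of 0.01 (edgeR adjusted p = 0.978). Its 95% interval of -0.31 to 0.33 bounds a difference in either direction. The log2 fold change was 0.28 within batch 3 and 0.22 without BM-Treg replicates 1 and 2 (edgeR adjusted p = 0.554).

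Il2rg, the shared chain, is on the X chromosome (101264378 to 101268255, minus strand). Its level was 656, 890, 1014 and 981 CPM in BM-Treg and 735, 811, 852 and 827 in SP-Treg, with BM-Treg replicate 1 the lowest of all libraries and the other BM-Treg libraries above SP-Treg. The log2 fold change was 0.13 (SE 0.13, 95% interval -0.14 to 0.41, edgeR adjusted p = 0.585). It was 0.30 within batch 3 and 0.34 without BM-Treg replicates 1 and 2 (edgeR adjusted p = 0.196). Gm20489 overlaps Il2rg on the same strand and held at most 6.12 expected counts, 0.0319% of those of Il2rg.

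Il4ra and Il21r lie 24.0 kb apart on chromosome 7 with no listed gene between them. Il4ra, a chain that IL-4 and IL-13 both use, measured 121, 121, 121 and 142 CPM in BM-Treg and 108, 117, 149 and 162 in SP-Treg, so that the BM-Treg range fell inside the SP-Treg range. Its log2 fold change of -0.09 (SE 0.13, 95% interval -0.36 to 0.19, edgeR adjusted p = 0.736) turned to 0.10 within batch 3, and was -0.0003 without BM-Treg replicates 1 and 2. Il21r, known in helper and B cells, measured 112, 121, 149 and 141 CPM in BM-Treg and 139, 190, 155 and 159 in SP-Treg. SP-Treg replicate 2, the library with the most B cell marker RNA, had the highest level, and the log2 fold change of -0.30 (SE 0.12, 95% interval -0.55 to -0.04, edgeR adjusted p = 0.149) was -0.20 without it. The value was also -0.20 without BM-Treg replicate 1, and it was -0.17 within batch 3 and -0.12 without BM-Treg replicates 1 and 2 (edgeR adjusted p = 0.718).

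**Figure D2:**
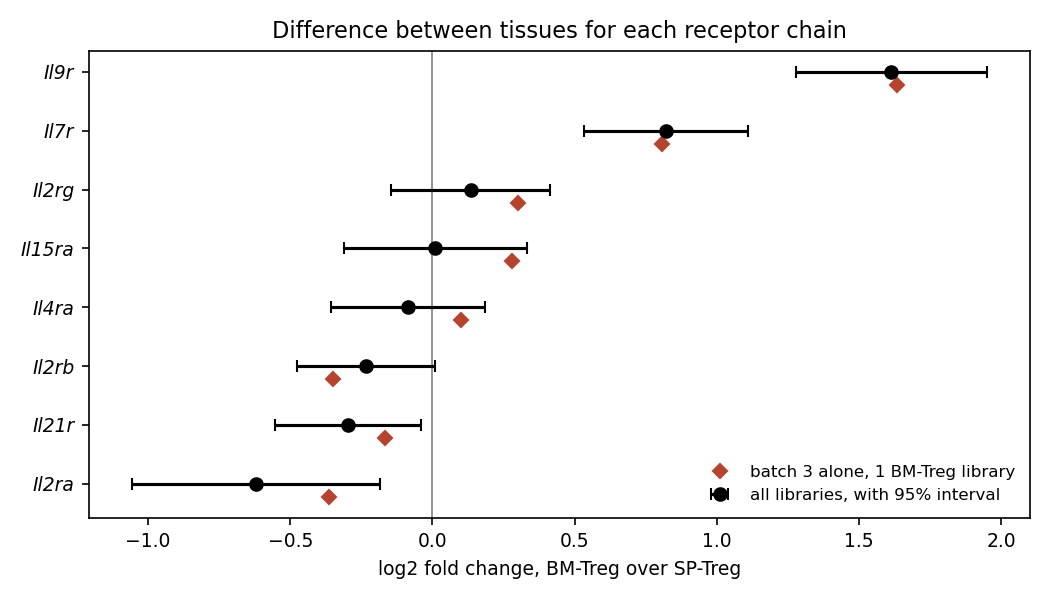
Log2 fold change of BM-Treg over SP-Treg for each of the 8 receptor genes, as a black point with the 95% interval of the edgeR fit over all libraries, beside a red diamond for the value from batch 3 alone, which holds 1 BM-Treg library. Intervals of Il9r (1.28 to 1.95) and Il7r (0.53 to 1.11) lie to the right of 0, and those of Il2ra and Il21r lie to the left of 0 although neither passed after adjustment over all genes.

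Levels of the chains were compared with each other in FPKM, which divides reads by transcript length and depth. In BM-Treg the order was Il2rg at 586.1 ± 99.0 FPKM (SD, n = 4), Il2rb at 365.2 ± 60.1, Il7r at 195.7 ± 12.5, Il2ra at 194.0 ± 15.5, Il21r at 52.8 ± 6.47, Il4ra at 25.7 ± 0.999, Il9r at 18.7 ± 3.10 and Il15ra at 14.6 ± 2.36 FPKM. In this order the libraries of Il2rg and Il2rb overlapped, as did those of Il7r and Il2ra and those of Il9r and Il15ra. SP-Treg had the order Il2rg at 510.4 ± 6.60 FPKM (SD, n = 4), Il2rb at 408.6 ± 32.0, Il2ra at 282.8 ± 85.7, Il7r at 106.4 ± 28.0, Il21r at 61.7 ± 6.43, Il4ra at 25.9 ± 4.17, Il15ra at 12.6 ± 2.10 and Il9r at 4.95 ± 0.678 FPKM. Only Il2rb and Il2ra overlapped among neighbours there. Il7r and Il2ra thus stood at one level in BM-Treg and apart in SP-Treg, and Il9r was the least abundant chain in SP-Treg only. By mean FPKM over all libraries, Il2rg, Il2rb, Il2ra and Il7r were at percentiles 99.4, 98.9, 98.1 and 97.1 of the 13397 genes, Il21r at 90.8, Il4ra at 77.8, Il15ra at 62.9 and Il9r at 59.

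**Figure D3:**
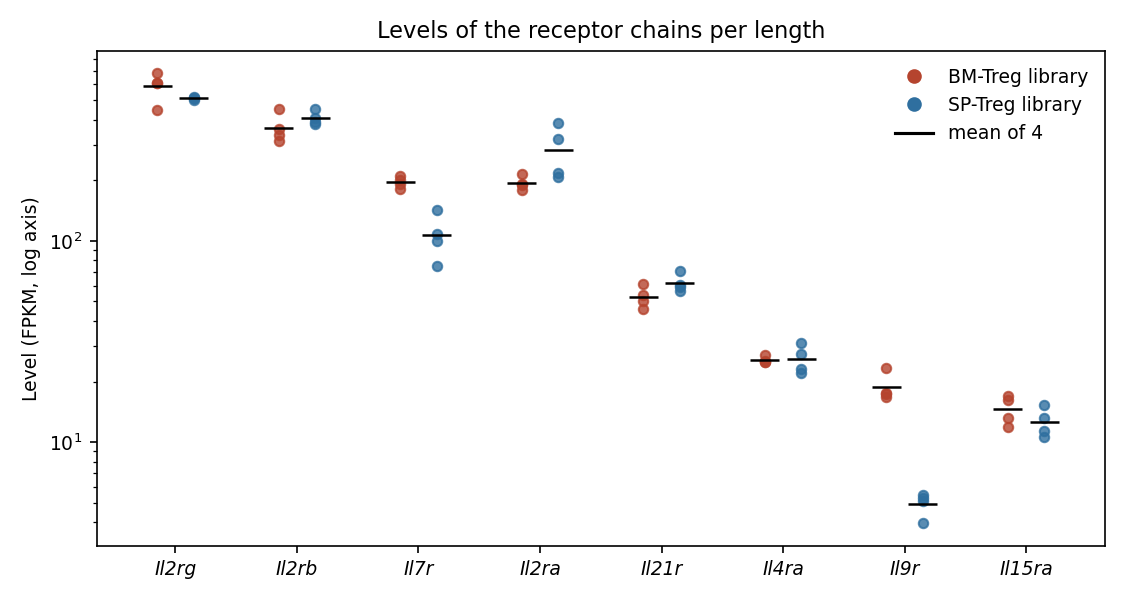
FPKM of the 8 receptor chains (log axis) in each library of BM-Treg and SP-Treg, with a point for each library and a line for the mean of 4. Il2rg is highest in both tissues, with means of 586.1 and 510.4 FPKM, and Il9r lies between Il4ra and Il15ra in BM-Treg and below Il15ra in SP-Treg.

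The 8 chains summed to 1453 ± 145.9 FPKM in BM-Treg and 1413 ± 55.4 FPKM in SP-Treg (SD, n = 4), a difference within the spread of the libraries. Il7r made up 13.6% ± 1.31 of that sum in BM-Treg and 7.55% ± 2.05 in SP-Treg, and Il9r 1.32% ± 0.355 and 0.352% ± 0.0592 (SD, n = 4). Il2ra made up 13.5% ± 1.97 in BM-Treg and 19.9% ± 5.42 in SP-Treg, where its share ran from 15.2% in replicate 1 to 26.3% in replicate 4. Il2rg held 40.1% ± 3.48 and 36.1% ± 0.985, and Il2rb 25.1% ± 2.54 and 29.0% ± 2.72.

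Ratios to the shared chain do not depend on how libraries are scaled. The FPKM ratio of Il9r to Il2rg was 0.0246 to 0.0523 in BM-Treg and 0.00766 to 0.0109 in SP-Treg, and that of Il7r to Il2rg was 0.295 to 0.430 and 0.146 to 0.278, both with no overlap. The ratio of Il21r to Il2rg was 0.0831 to 0.103 in BM-Treg and 0.111 to 0.142 in SP-Treg, again with no overlap but in the other direction. Il21r itself overlapped between the tissues in both CPM and FPKM and was not called. The share of all genes whose ratio to Il2rg does not overlap was not counted. Ratios of Il2ra, Il2rb, Il4ra and Il15ra to Il2rg overlapped between the tissues.

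The FPKM ratio of Il7r to Il2ra, which was looked at after the values of both genes were seen, was 0.998, 1.11, 1.12 and 0.836 in BM-Treg replicates 1 to 4 and 0.660, 0.516, 0.312 and 0.195 in SP-Treg replicates 1 to 4. The means were 1.02 ± 0.133 and 0.421 ± 0.208 (SD, n = 4). Among SP-Treg libraries, replicate 4 was highest for Il2ra and lowest for Il7r in both FPKM and CPM. These ratios are a description and carry no test.

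**Figure D4:**
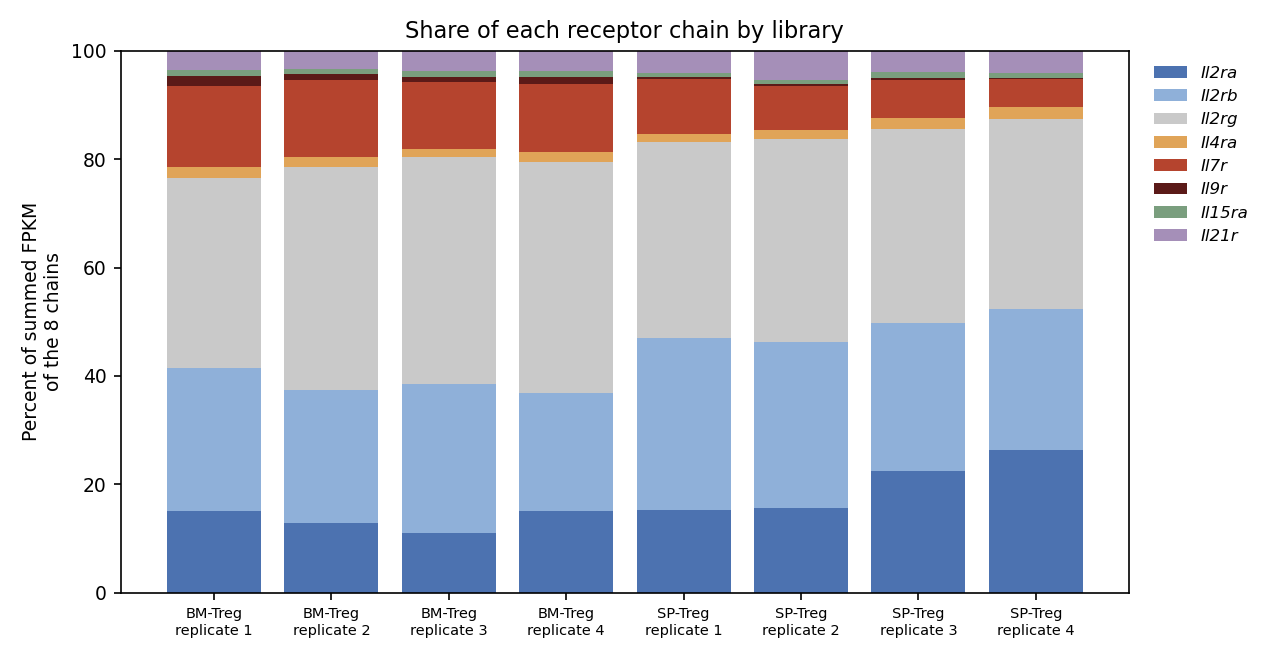
Share of each of the 8 chains in their summed FPKM (percent, stacked from 0) for each library. The Il7r share is 12.3% to 15.1% in BM-Treg and 5.12% to 10.03% in SP-Treg, and the Il2ra share reaches 26.3% in SP-Treg replicate 4.

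Transcript shares were read from the deposited estimates, which are uncertain where transcripts overlap. For Il7r, Il4ra and Il21r the tables list 1 transcript each. Il2ra-201 held 98.7% to 99.6% of the expected counts of Il2ra over the 8 libraries, and Il2rb-201 at least 99.6% of those of Il2rb. Il2rg-201 held 94.1% to 95.8%, and a transcript with a retained intron 2.82% to 4.70%. Il9r-205, the main of 5 listed coding and noncoding forms of Il9r, held 82.5% ± 3.71 in BM-Treg and 85.8% ± 7.33 in SP-Treg (SD, n = 4). The difference in Il9r was thus not accompanied by a difference in the share of its main transcript beyond the spread. Il9r-203, a form with a retained intron, held 8.89% to 15.4% in BM-Treg and 5.49% to 13.3% in SP-Treg, with overlap. Il15ra differed from the other chains in that the 4 forms with a retained intron took 59.9% to 69.1% of its counts in BM-Treg and 53.7% to 79.7% in SP-Treg, led by Il15ra-208 with 39.4% ± 4.87 and 39.6% ± 2.74.

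The pathway around the receptors was read from 37 listed genes, of which 29 were tested. Of these, 2 rose and 4 fell in BM-Treg, against 3.72% higher and 5.02% lower over all genes tested. With a batch term 1 was called higher and 1 lower, against 1.93% of all genes in either direction. None of the 8 genes for ligands and related cytokines passed the filter. Il9 and Tslp were at 0 expected counts in every library, and the highest counts were 27 for Il7, 13 for Il21, 9 for Il4, 6 for Il15, 3.5 for Il2 and 1 for Il13. Il21 held 0 to 2 counts in BM-Treg libraries and 4 to 13 in SP-Treg libraries, and was called lower in BM-Treg when the filter was dropped (edgeR adjusted p = 0.01). Of the partner chains, Il13ra1, which pairs with the Il4ra product, had a log2 fold change of -1.31 (edgeR adjusted p = 0.0878), and Crlf2, which pairs with the Il7r product in the TSLP receptor, one of -0.07 (edgeR adjusted p = 0.879).

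Of the 9 signal transducers read, 1 rose. Irs2, an adaptor of the IL-4 receptor, measured 26.5, 29.6, 29.1 and 40.1 CPM in BM-Treg and 13.1, 12.4, 19.5 and 18.7 CPM in SP-Treg, with no overlap (log2 fold change 0.97, SE 0.18, edgeR adjusted p = 0.00394). It also passed with a batch term (edgeR adjusted p = 0.0179). The kinase gene Jak3 had a log2 fold change of -0.28 (edgeR adjusted p = 0.131), and Stat5a and Stat5b, the main STAT genes downstream of IL-2 and IL-7, had 0.02 each.

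Among 8 feedback inhibitors, Ptpn6, the gene of the phosphatase SHP-1, fell with a log2 fold change of -0.85 (SE 0.12, edgeR adjusted p = 0.00105), from 57.5 to 79.2 CPM in SP-Treg to 35.5 to 43.0 CPM in BM-Treg. With a batch term its adjusted p was 0.0524. Socs2 had a log2 fold change of -0.82 (edgeR adjusted p = 0.0771) and Cish, a gene switched on by STAT5, one of 0.21 (edgeR adjusted p = 0.499).

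Of 10 genes known as STAT5 targets in T cells, 1 rose and 3 fell, against 3.72% and 5.02% of all genes tested. The kinase gene Pim1 rose, with 191, 228, 256 and 209 CPM in BM-Treg and 124, 123, 108 and 172 in SP-Treg (log2 fold change 0.75, SE 0.14, edgeR adjusted p = 0.00451, with a batch term 0.133). Bcl2, an inhibitor of cell death that IL-7 is known to maintain, fell, with 82.2, 78.8, 82.4 and 54.7 CPM in BM-Treg and 105.6, 135.3, 161.4 and 192.5 CPM in SP-Treg. Its log2 fold change was -0.99 (SE 0.18, edgeR adjusted p = 0.00682, with a batch term 0.0274). Lta, the gene of lymphotoxin alpha, fell with a log2 fold change of -1.74 (SE 0.30, edgeR adjusted p = 0.00343, with a batch term 0.103). Myc, a growth regulator, fell with a log2 fold change of -1.04 (SE 0.26, edgeR adjusted p = 0.0413), but passed in only 2 of the 8 fits that left out 1 library, with an adjusted p of up to 0.117. Without BM-Treg replicates 1 and 2, Irs2, Pim1 and Ptpn6 still passed (edgeR adjusted p = 0.022, 0.0296 and 0.0255), whereas Bcl2, Lta and Myc did not (0.0639, 0.0534 and 0.269). Foxp3 itself, also a STAT5 target, had a log2 fold change of 0.26 (95% interval -0.02 to 0.53, edgeR adjusted p = 0.241).

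**Figure D5:**
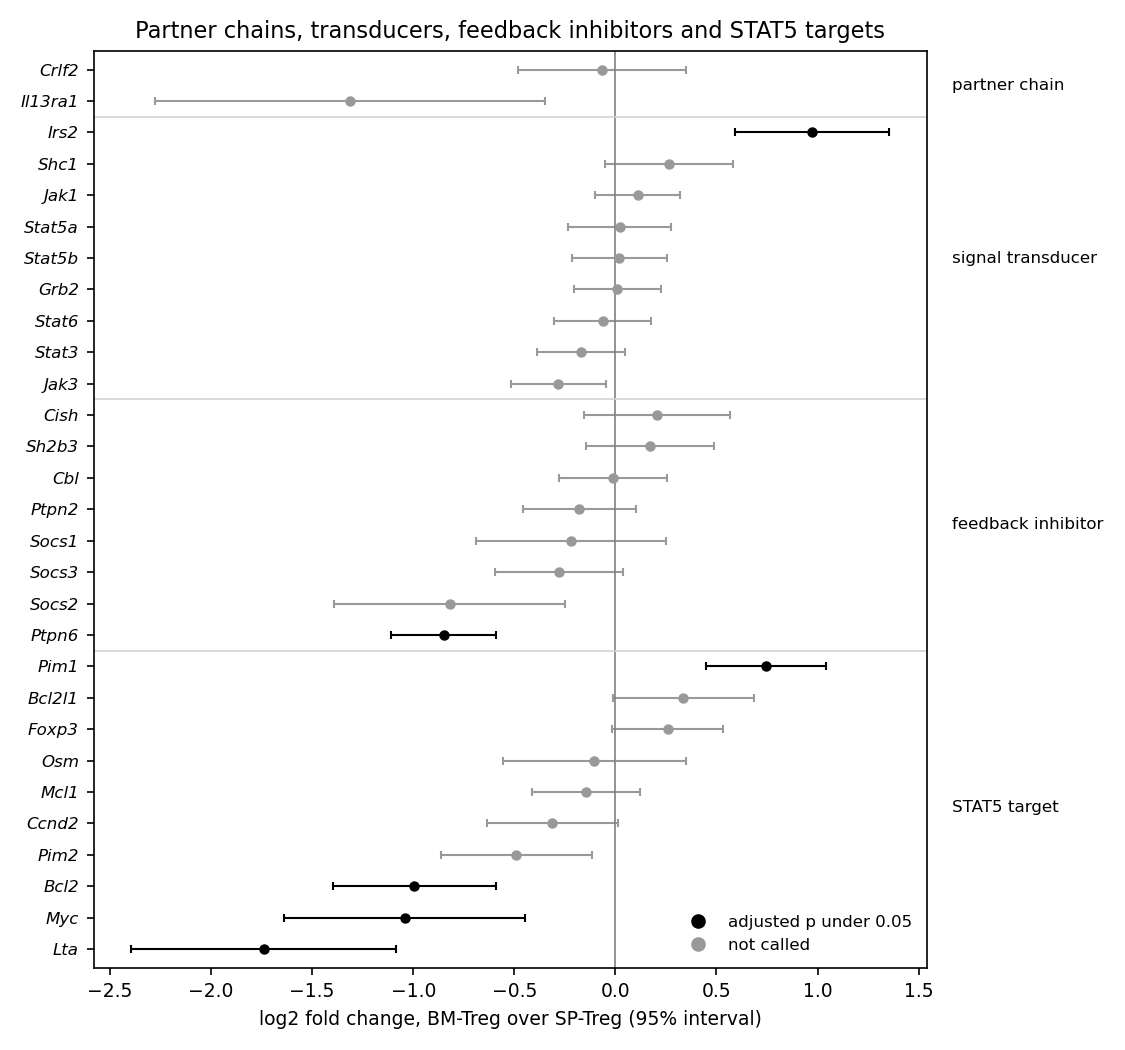
Log2 fold change of BM-Treg over SP-Treg with 95% intervals for the 29 tested genes of the pathway lists, grouped as partner chains, signal transducers, feedback inhibitors and STAT5 targets. The 2 genes called higher (Irs2 and Pim1) and the 4 called lower (Ptpn6, Bcl2, Myc and Lta) are drawn in black, and the 23 that did not pass in grey.

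Genes that ran most like the called receptors were found among 8549 tested genes whose mean log2 CPM was 3 or more, by the root mean square difference of centred log2 CPM over the 8 libraries. For Il7r, whose own SD was 0.50 log2 units, these were Pacs1 at 0.11, Sytl2 at 0.13 and Slc36a1 at 0.14. For Il9r, with an SD of 0.90, they were S100a4 at 0.28, Crip1 at 0.28 and Hist1h3e at 0.30. Pacs1 measured 253.0 to 274.6 CPM in BM-Treg and 130.02 to 175.2 CPM in SP-Treg, and Crip1 101.6 to 130.2 CPM and 41.8 to 60.5 CPM, so that the likest genes also lay higher in every BM-Treg library. They were chosen for this likeness, and their levels are no separate result.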

How the data were processed

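RNA of sorted cells was amplified by single primer isothermal amplification (15 ng, NuGEN Ovation, no strand mark, no molecular identifiers) and sequenced from a single end with 80 nt reads. The submitters' processing notes name cutadapt 1.9, STAR 2.5.2a, RSEM 1.2.30 and the build GRCm38. The authors deposited expected counts per gene and per transcript, not normalized between libraries, and FPKM values, scaled further by transcript length and depth. Each column was matched to a library by name, and the files were used whole.

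Expected counts were rounded. Genes passing edgeR's filterByExpr (13397 of 38215) were normalized by TMM and tested over all 8 libraries with the robust quasi-likelihood test without covariates (R 4.3.3, edgeR 4.0.16), with Benjamini-Hochberg adjustment over all genes tested and a threshold of 0.05. CPM used TMM library sizes, and log2 CPM a prior count of 2. Positive log2 fold changes are higher in BM-Treg. An SE is the log2 fold change divided by the root of its F statistic. The test was checked on simulated counts. Alternatives were DESeq2 size factors, DESeq2 1.42.0, limma 3.58.1 (voom, and trend on log2(FPKM + 1) and log2(FPKM + 0.1)), other filters, a batch term, batch 3 alone, a replicate block, each library left out, a threshold of 0.01 and, added after the data were seen, BM-Treg replicates 1 and 2 left out together. The genes named were the 8 receptor genes, the pathway lists, the 3 genes most like each called receptor gene, and Xist and Ddx3y. Of the pathway lists, 1 gene is not reported here, and counts are over the others. All 117 list entries matched a listed gene, some by an older symbol, and marker list sums are CPM. The receptor genes and the lists were chosen with earlier results of these data known.

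Totals of 12427136 to 21921252 expected counts (medians 19025999 in BM-Treg and 13108535 in SP-Treg) set the counting error, while the errors given come from how far libraries differed. Within each tissue the libraries differed by more than sampling noise (chi-square per degree of freedom 14.2 to 92.4 among genes averaging 50 counts or more). Coordinates are those of the deposited tables. Promoter windows came from RefSeq (GRCm38.p6), with 7 of the 8 genes matched.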

Additional observations from a re-analysis of the deposited data

Results flagged for a closer look

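Over 88 groups of 4 libraries (the levels and ratios of the genes named, by tissue), 5 held a library far from the other 3 by Dixon's test. This rate is near the 1 in 20 that chance gives for independent groups. These groups share libraries, however, and all 5 were in BM-Treg. Il2ra stood at 940.2 CPM in BM-Treg replicate 4 and at 737.5 to 763.4 CPM in the other BM-Treg libraries. Il4ra stood at 141.7 CPM in BM-Treg replicate 4 and at 121.0 to 121.2 CPM in the others. Bcl2 stood at 54.7 CPM in BM-Treg replicate 4 and at 78.8 to 82.4 CPM in the others. BM-Treg replicate 4 is the BM-Treg library labelled batch 3 and male, so that batch, sex and library cannot be told apart. Stat5a stood at 65.2 CPM in BM-Treg replicate 1 and at 53.1 to 54.1 CPM in the others. The FPKM ratio of Il9r to Il2rg was 0.0523 in BM-Treg replicate 1, in which Il2rg was lowest, and 0.0246 to 0.0288 in the others. Il9r was also highest there in FPKM, at 23.4 against 16.7 to 17.6, and in CPM at 44.2 against 34.3 to 42.1. Between the tissues, the log2 ratio of Il9r to Il2rg differed by 1.74 in FPKM and 1.52 in CPM.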

How the results depend on the processing

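Il9r was called higher under every alternative run. Il7r was called under all of them except the batch term and batch 3 alone, which each left 1 of the 8 receptor genes higher. A receptor gene was called lower, in each case Il2ra, with DESeq2 (1), the replicate block (1, adjusted p = 0.0402) and without SP-Treg replicate 1 or 2, so that leaving out a library gave 0 to 1. The log2 fold change of Il4ra turned to 0.081 with the batch term, 0.10 in batch 3 alone and 0.018 without SP-Treg replicate 4, and ranged from -0.16 to 0.018 with a library left out. That of Il15ra turned to -0.015 with limma-voom, -0.03 without BM-Treg replicate 3, -0.081 without BM-Treg replicate 4 and -0.03 without SP-Treg replicate 1. Of the pathway genes, the 2 called higher became 1 with the batch term and 1 in batch 3 alone. The 4 called lower became 1 with the batch term, 0 in batch 3 alone, 1 without BM-Treg replicates 1 and 2, and 3 to 5 with a library left out. Over all genes, the 499 called higher became 781 with DESeq2, 111 with the batch term, 36 in batch 3 alone, 163 at 0.01, 175 without BM-Treg replicates 1 and 2, and 297 (without BM-Treg replicate 2) to 425 with a library left out. The 673 called lower became 283 on log2(FPKM + 1), 274 on log2(FPKM + 0.1), 147 with the batch term, 62 in batch 3 alone, 264 at 0.01, 167 without BM-Treg replicates 1 and 2, and 393 (without BM-Treg replicate 2) to 631 with a library left out. The share of calls that were higher was 42.6%, against 63.0% and 62.4% on the FPKM scales. The cause was not tested, except that fewer libraries entered some fits. Replicate numbers do not pair the libraries: same-number correlations of deviations were -0.106, 0.059, -0.176 and 0.04, and 2 of 4 libraries matched best with their own number. With the replicate block, 400 genes were higher and 548 lower, and for the pathway 2 higher and 5 lower. The ligand genes had too few counts to pass the filter, which limits what can be said of them at this depth.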
